A study of Homo sapiens with 6 samples.

Results

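RNA levels of the Hippo pathway and of genes controlled by its effectors were examined after 72 h in 2 µM Azeliragon or in the vehicle DMSO in MDA-MB-231, an established breast cancer line that lacks hormone receptors and has mesenchymal features. Azeliragon is a small-molecule inhibitor of the receptor RAGE. Each condition had 3 libraries of polyadenylated RNA, lettered a, b and c, and all came from this line, grown in DMEM-F12 with serum and glutamine. Whether they stem from independent cultures is not stated, so p-values reflect only how far these libraries spread, which can be technical. The 34 genes were taken by name from a list of pathway members and known targets, with CCN1 and CCN2 found under their older symbols CYR61 and CTGF, among 58735 entries of the deposited table. Of these, 19 were treated as YAP-TEAD targets, among them 7 that also act in the pathway, and 15 as core components.

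In the Hippo pathway the kinases MST1 and MST2 (genes STK4 and STK3), with the scaffold SAV1, activate LATS1 and LATS2, which work with MOB1 proteins. LATS kinases phosphorylate the co-activators YAP (YAP1) and TAZ (WWTR1) and thereby keep them out of the nucleus. When that restraint is low, YAP and TAZ bind TEAD transcription factors. They then switch on genes for secreted matrix proteins, receptors and pathway components, several of which restrain YAP in turn. In breast cancer models YAP and TAZ activity is known for its part in invasion and metastasis, and MDA-MB-231 cells are known to carry a truncating mutation of NF2, an upstream activator of LATS.

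TEAD proteins recognise the short motif CATTCC, which on the other strand reads GGAATG, and promoter windows that hold it are shown so that it can be read in place. RefSeq sequence (GRCh38.p14) of the 250 bases before 1 RefSeq start per gene was at hand for 13 targets and 13 core components. Other starts of these genes were not searched. In the annotation GENCODE 29 some of them begin further upstream, so their windows lie partly or wholly within the gene. There PTPN14 begins at base 214552449 and ANKRD1 at base 90921276, each on the minus strand. The targets CYR61, CRIM1, TEAD1, ARHGEF17, ASAP1 and DLC1 and the core genes TEAD4 and STK3 were not searched. The motif, searched on both strands, was in 3 of the 13 target windows (23.1%), in 1 of the 13 core windows (7.69%) and in 11.9% of 27305 promoter windows of the same length. The 4 windows that held it are printed 5′ to 3′ with the motif in capitals: ANKRD1 (chr10:90921088-90921337, minus strand), CTGF (chr6:131951373-131951622, minus strand), PTPN14 (chr1:214551603-214551852, minus strand) and YAP1 (chr11:102110197-102110446, plus strand).
ANKRD1: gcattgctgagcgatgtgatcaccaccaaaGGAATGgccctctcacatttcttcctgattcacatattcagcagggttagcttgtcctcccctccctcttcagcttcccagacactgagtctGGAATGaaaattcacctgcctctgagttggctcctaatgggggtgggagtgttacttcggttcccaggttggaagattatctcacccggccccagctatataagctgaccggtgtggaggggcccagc
CTGF: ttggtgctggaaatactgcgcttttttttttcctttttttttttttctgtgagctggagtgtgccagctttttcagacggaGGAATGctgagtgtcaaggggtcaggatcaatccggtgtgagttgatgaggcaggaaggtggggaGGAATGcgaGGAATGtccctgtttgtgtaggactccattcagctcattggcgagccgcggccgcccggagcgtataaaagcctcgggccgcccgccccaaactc
PTPN14: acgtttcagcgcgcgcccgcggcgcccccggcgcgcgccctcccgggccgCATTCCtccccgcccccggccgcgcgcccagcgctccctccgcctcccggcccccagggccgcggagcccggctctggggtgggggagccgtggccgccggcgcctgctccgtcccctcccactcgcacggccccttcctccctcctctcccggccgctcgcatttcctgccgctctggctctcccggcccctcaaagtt
YAP1: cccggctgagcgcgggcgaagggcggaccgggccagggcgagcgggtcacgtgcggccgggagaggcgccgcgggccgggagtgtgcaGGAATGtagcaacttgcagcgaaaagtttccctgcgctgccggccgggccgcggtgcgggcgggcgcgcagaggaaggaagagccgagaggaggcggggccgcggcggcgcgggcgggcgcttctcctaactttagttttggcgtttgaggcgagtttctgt
CTGF held 3 copies, of which the nearest began 95 bases before the start, and ANKRD1 held 2, of which the nearer began 128 bases before it. PTPN14 and YAP1 held 1 copy each. A loose form of the motif of AP-1 factors, TGANTCA, was in the windows of ANKRD1, F3 and the core gene MOB1B. It reads the same on both strands, with N as any base. The matches read TGATTCA in ANKRD1 and MOB1B, and TGAATCA and TGAGTCA in F3. This loose form was in 15.4% of target windows, 7.69% of core windows and 6.6% of all windows. A match describes the letters of the window and does not show that a factor binds there.

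Library totals ranged from 41455979 to 44313584 counts. Differences were tested with edgeR's quasi-likelihood test over 16081 genes, and a gene was called at a Benjamini-Hochberg adjusted p under 0.05. Levels are given as CPM, counts relative to the library total after TMM scaling between libraries. On the first principal component of all genes (37.6% of the variance) the Azeliragon libraries scored -23.0 to -19.0, DMSO a -0.23, DMSO b 30.1 and DMSO c 33.7, so DMSO a was midway. In these genes it stood above DMSO b and c in 24 of the 33 members that were tested (72.7%) and in 40.3% of all genes tested. Results are therefore given with and without it. The line's markers VIM and CD44 were abundant, with at least 1745 and 574 CPM in every library, and CDH1 had 1 read in all and PGR none. Of the 4 markers listed as low in the line, ESR1, PGR, ERBB2 and CDH1, 3 were under 1 CPM. The remaining one was not low, as the 4 summed to 108.5 to 112.1 CPM with Azeliragon and 103.7 to 114.4 CPM in DMSO. Of the other markers of the line that are high, MET did not pass (log2 fold change 0.11) and EGFR rose (0.58; edgeR adjusted p = 0.0174, and between 3.84e-10 and 0.116 over the fits on 5 libraries). Markers of other cell types were low for fibroblasts, with 5 of 7 under 1 CPM, PDGFRA at 0 reads and a sum of 10.6 to 12.8 CPM with Azeliragon and 17.8 to 20.4 CPM in DMSO. Of 4 endothelial markers 3 were under 1 CPM, and their sum was 5.96 to 6.29 CPM with Azeliragon and 3.08 to 4.497 CPM in DMSO. Within these lists COL1A1 and PDGFRB fell (log2 fold changes -0.77 and -0.75), and KDR rose (0.71). All 5 leukocyte markers were under 1 CPM, and 1 of 5 luminal epithelial markers was, with a luminal sum of 1275 to 1336 CPM with Azeliragon and 1307 to 1524 CPM in DMSO. The part of these lists in the results below was not tested.

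YAP-TEAD targets were mostly a little higher with Azeliragon. All 19 had a positive log2 fold change, with a median of 0.26, where the median of all genes tested was 0.00 (-0.004). Of the 19, ANKRD1, CYR61, AXL, CRIM1, F3 and WWC1 rose, 13 did not pass and none fell, where 6.27% of all genes tested were called, 2.75% higher and 3.53% lower. At an unadjusted p under 0.05 edgeR had 15 targets higher and 0 lower (9.89% and 10.5% of all genes), and DESeq2 called 9 higher and 0 lower after adjustment (4.29% and 4.54% of all genes). The fold changes lay between 0.02 and 0.61 on the log2 scale, and 0 passed a test against a 1.5-fold change (edgeR's glmTreat), where 0.0622% of all genes were called higher. Groups did not overlap for 11 of the 19, all higher with Azeliragon, which was so for 12.1% of all genes. In bulk RNA a change in the number of expressing cells and a change in RNA per cell cannot be told apart. Without DMSO a 18 targets rose and none fell, with a median of 0.33, where 12.9% of all genes were called higher, and the exception was NT5E. The count was 2 without Azeliragon c, 3 without Azeliragon b or DMSO b, 4 without Azeliragon a and 6 without DMSO c. Of all genes, 0.958% were called higher without Azeliragon c, 1.13% without Azeliragon b and 0.931% without DMSO b. That share was 1.06% without Azeliragon a and 2.12% without DMSO c. Members and lists were chosen with earlier results of these data known, so these counts are no independent support for the direction.

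**Figure D1:**
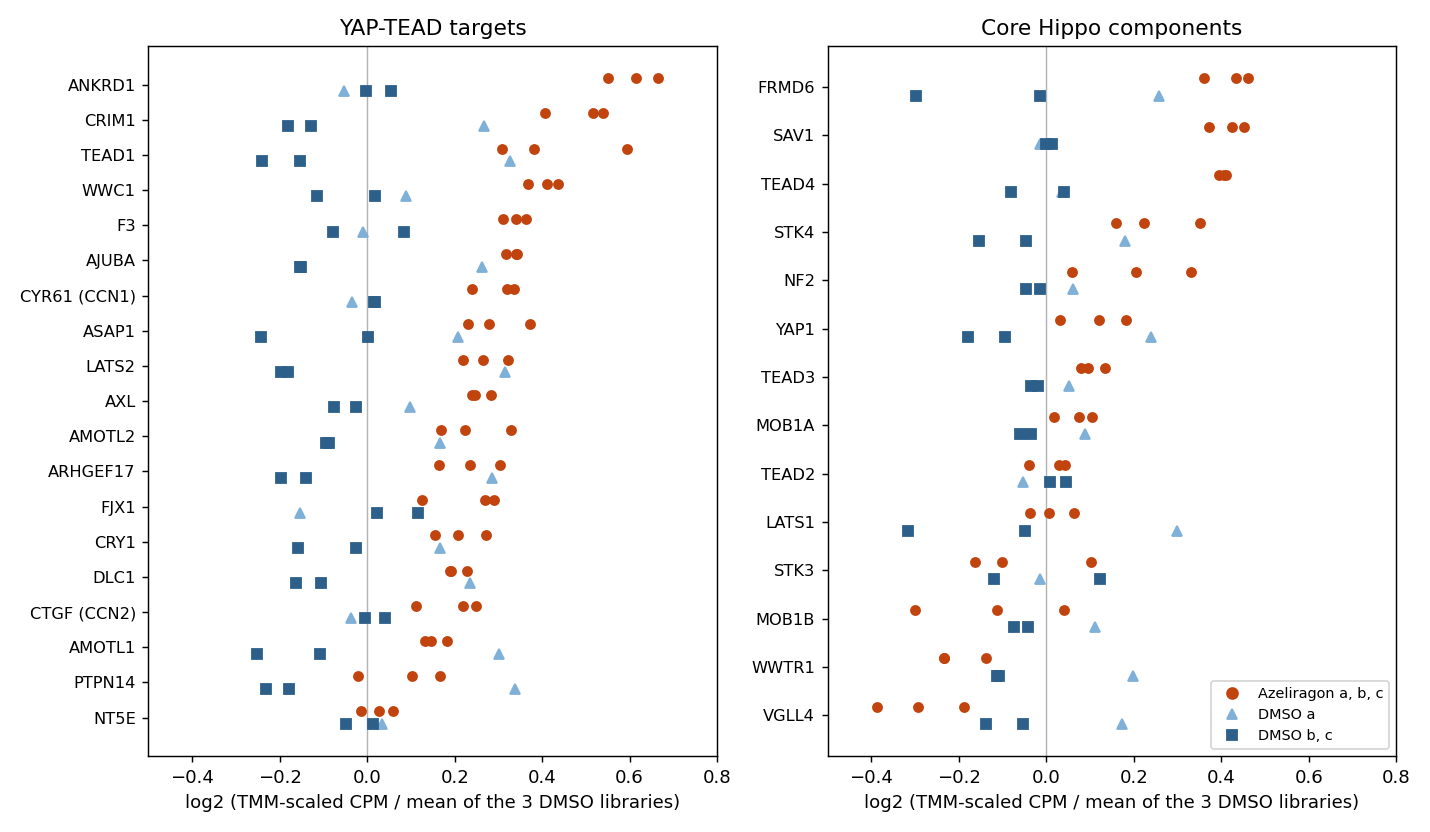
Level of each tested member in every library, as the log2 ratio of its TMM-scaled CPM to the mean of the 3 DMSO libraries, for 19 targets (left) and 14 core components (right), ordered by fold change. Circles are Azeliragon libraries, the triangle is DMSO a and squares are DMSO b and c; Azeliragon libraries lie above all DMSO libraries for 11 targets and 4 core components, and DMSO a lies above DMSO b and c in 24 of 33 rows.

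ANKRD1, an ankyrin repeat protein whose gene is a common reporter of YAP activity, had the largest fold change of the 34 genes (chromosome 10, 90912096 to 90921276, minus strand; GRCh38, GENCODE 29). It stood at 219, 237 and 229 CPM with Azeliragon a, b and c, against 144, 149 and 155 CPM in DMSO a, b and c. Every Azeliragon library lay above every DMSO library, and DMSO a was the lowest of the 6. The rise was 1.53-fold (log2 fold change 0.61, SE 0.06; edgeR adjusted p = 0.00012, and between 8.77e-09 and 0.0025 with each library left out in turn). No annotated gene overlaps its exons.

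CYR61 and CTGF encode the secreted matricellular proteins CCN1 and CCN2, the best known YAP targets, and both are short transcripts at very high levels. CYR61 (chromosome 1, 85580761 to 85583962, plus strand) stood at 2741, 2899 and 2929 CPM with Azeliragon, against 2268, 2349.8 and 2347 CPM in DMSO. The groups did not overlap, and the rise was 1.23-fold (log2 fold change 0.30, SE 0.06; edgeR adjusted p = 0.00817). The call was lost without Azeliragon b, Azeliragon c or DMSO b (adjusted p between 2.69e-05 and 0.0985 over the 6 fits on 5 libraries). CTGF (chromosome 6, 131948176 to 131951373, minus strand) stood at 798, 859.8 and 878 CPM with Azeliragon, against 719.7, 760.0 and 737 CPM in DMSO. Its groups did not overlap either, but the log2 fold change of 0.19 (95% interval 0.06 to 0.33) did not pass (edgeR adjusted p = 0.0893). Without DMSO a the CTGF value was 0.18 and passed. An antisense transcript overlaps CTGF exons.

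AXL, CRIM1 and NT5E are targets at the cell surface. AXL, the receptor tyrosine kinase for GAS6, stood at 1708, 1666 and 1658 CPM with Azeliragon, against 1501, 1378 and 1332 CPM in DMSO. The groups did not overlap, and DMSO a was the nearest to the Azeliragon libraries (log2 fold change 0.26, SE 0.06; edgeR adjusted p = 0.0297). CRIM1, a transmembrane protein that binds bone morphogenetic proteins, stood at 287, 262 and 282 CPM with Azeliragon, against 238, 181 and 174 CPM in DMSO. Its groups did not overlap, with DMSO a far above the other DMSO libraries, and the rise was 1.40-fold (log2 fold change 0.49, SE 0.10; edgeR adjusted p = 0.0142; 0.64 on the log2 scale without DMSO a). The AXL call was lost in each of the 5 fits that kept DMSO a and left out another library, and the CRIM1 call without Azeliragon a, Azeliragon c or DMSO b (adjusted p between 7.95e-06 and 0.164 for AXL and between 2.03e-09 and 0.103 for CRIM1 over all 6 such fits). Both genes share a few exonic bases with a gene on the opposite strand. NT5E, the ecto-enzyme CD73 that makes adenosine from AMP, stood at 474, 485 and 461 CPM with Azeliragon, against 476, 469 and 450.2 CPM in DMSO. These groups overlapped, and the 95% interval of the log2 fold change, -0.10 to 0.15, held 0.

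F3, tissue factor, which starts the coagulation cascade, stood at 145, 151 and 148 CPM with Azeliragon, against 116, 124 and 111 CPM in DMSO. The groups did not overlap (log2 fold change 0.34, SE 0.06; edgeR adjusted p = 0.0078), and the call was lost without Azeliragon b or Azeliragon c (adjusted p between 8.11e-05 and 0.0623 over the fits on 5 libraries). FJX1, the human relative of Drosophila four-jointed, which acts on Fat and Dachsous there, stood at 141, 158 and 155 CPM with Azeliragon, against 116, 131 and 139.8 CPM in DMSO. Its groups were narrowly apart, and it did not pass (log2 fold change 0.23; edgeR adjusted p = 0.12). The remaining targets outside the pathway proper were ARHGEF17, DLC1, the Arf GTPase-activating protein ASAP1 and the clock repressor CRY1. Their log2 fold changes were 0.24, 0.20, 0.29 and 0.21, and none of the 4 passed with all libraries. Without DMSO a these 4 genes passed, at 0.40, 0.34, 0.41 and 0.30. The ratio of DMSO a to the mean of DMSO b and c was 1.37, 1.29, 1.25 and 1.19 in ARHGEF17, DLC1, ASAP1 and CRY1, and between 0.947 and 0.989 in ANKRD1, CYR61, CTGF and F3.

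Of the 7 targets that are also pathway components, 1 rose with all 6 libraries (2.75% of all genes were called higher) and all 7 rose without DMSO a (12.9% of all genes). In each of the other 5 fits on 5 libraries 1 of the 7 rose, where 0.931% to 2.12% of all genes were called higher. WWC1, also named KIBRA, an upstream activator of LATS, stood at 80.7, 83.2 and 84.6 CPM with Azeliragon, against 66.5, 57.8 and 63.4 CPM in DMSO. Its groups did not overlap, and the rise was 1.32-fold (log2 fold change 0.40, SE 0.07; edgeR adjusted p = 0.00487, and between 5.33e-06 and 0.0454 over the fits on 5 libraries). TEAD1, the TEAD factor that is itself a target, stood at 163, 155 and 189 CPM with Azeliragon, against 157, 113 and 106 CPM in DMSO. DMSO a lay within the Azeliragon range, and the log2 fold change of 0.43 (95% interval 0.15 to 0.71) did not pass (edgeR adjusted p = 0.0722). AJUBA, a LIM protein that binds and inhibits LATS, stood at 286, 281 and 286 CPM with Azeliragon, against 271, 203 and 203 CPM in DMSO. Its groups did not overlap, DMSO a was close to the Azeliragon libraries, and it did not pass (log2 fold change 0.33; edgeR adjusted p = 0.0721). Both genes passed with DESeq2, and without DMSO a their log2 fold changes were 0.63 and 0.49.

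LATS2, the kinase that the effectors induce as feedback, stood at 68.8, 71.0 and 73.9 CPM with Azeliragon, against 73.6, 52.2 and 51.6 CPM in DMSO. DMSO a lay inside the Azeliragon range and DMSO b and c below it, with a log2 fold change of 0.27 with all libraries and 0.46 without DMSO a. AMOTL1 and AMOTL2, angiomotin-like proteins that hold YAP in the cytoplasm, had log2 fold changes of 0.15 and 0.24, and PTPN14, a phosphatase that binds and restrains YAP, had 0.08. None of these passed with all libraries, and they reached 0.33, 0.33 and 0.29 without DMSO a. In DMSO a AMOTL1 stood at 107 CPM and PTPN14 at 279.9 CPM, above every Azeliragon library, whose highest values were 98.9 and 249 CPM. AMOTL2 had 238, 247 and 265 CPM with Azeliragon, against 237, 198 and 199 CPM in DMSO, and the groups were barely apart.

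**Figure D2:**
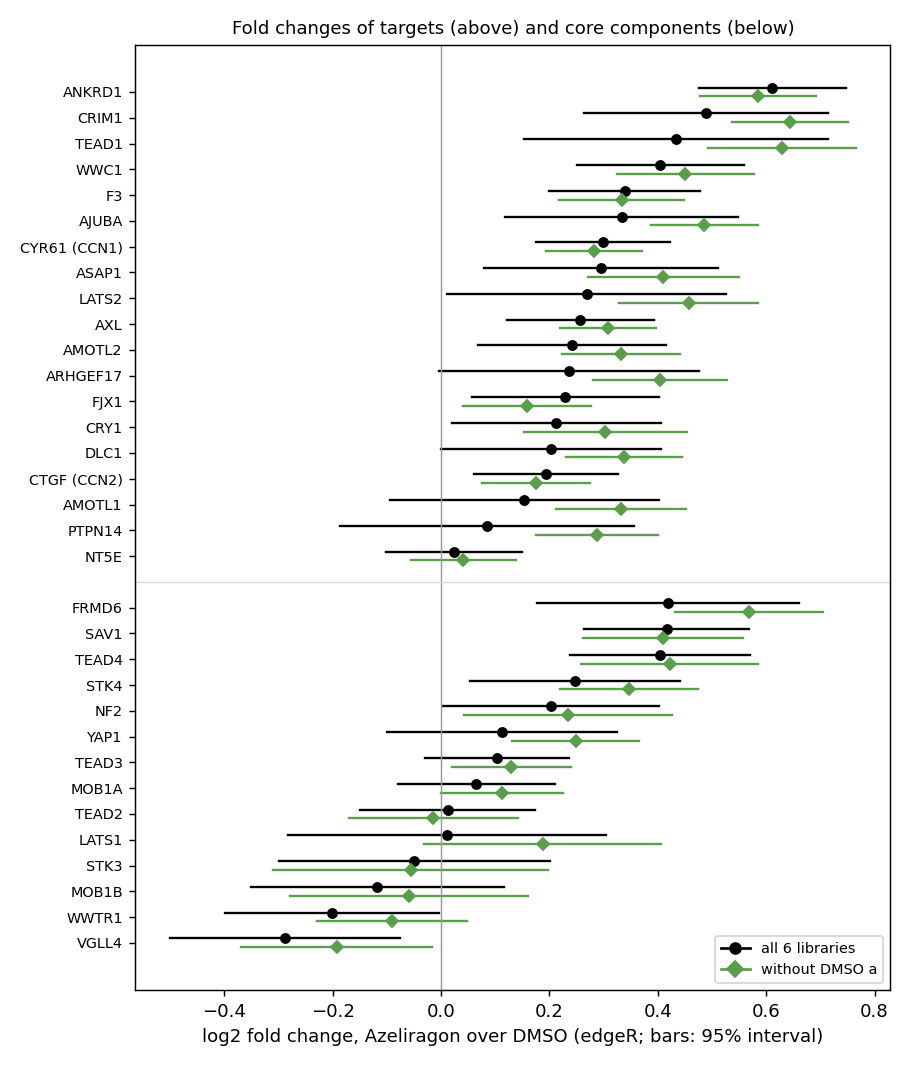
Log2 fold change (Azeliragon over DMSO) of the 19 targets (above the line) and 14 tested core components (below it), with 95% intervals from edgeR, for all 6 libraries (black circles) and without DMSO a (green diamonds). All target estimates lie right of 0, from 0.02 for NT5E to 0.61 for ANKRD1, whereas core components run from -0.29 for VGLL4 to 0.42 for FRMD6.

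Core components had fold changes in both directions. Of 14 tested, SAV1, FRMD6 and TEAD4 rose, 11 did not pass and none fell, with a median log2 fold change of 0.08; 10 values were positive and 4 negative. Of all genes 2.75% were called higher and 3.53% lower. At an unadjusted p under 0.05 edgeR had 5 core genes higher and 2 lower (9.89% and 10.5% of all genes), and DESeq2 called 3 higher and 0 lower after adjustment (4.29% and 4.54% of all genes). Groups did not overlap for 4 core genes that were higher and 2 that were lower with Azeliragon, where 12.1% and 13.2% of all genes were so. Without DMSO a 5 rose and none fell, where 12.9% of all genes were called higher and 10.8% lower. Without Azeliragon c or DMSO b 1 rose, where 0.958% and 0.931% of all genes were called higher. Without Azeliragon a, Azeliragon b or DMSO c 2 rose (1.06%, 1.13% and 2.12% of all genes). AMOT, the founding angiomotin, had 1 read in Azeliragon a and 0 in every other library, was not tested, and stood under the limit of 3 counts, which is 0.0665 to 0.0723 CPM.

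In the kinase cassette the scaffold SAV1 (chromosome 14, 50632058 to 50668331, minus strand) stood at 44.1, 45.8 and 46.7 CPM with Azeliragon, against 33.8, 34.1 and 34.4 CPM in DMSO. The 3 DMSO libraries were tight, DMSO a among them, and the groups did not overlap. SAV1 rose 1.33-fold (log2 fold change 0.42, SE 0.07; edgeR adjusted p = 0.00391, and between 0.000137 and 0.0397 over the fits on 5 libraries). ATL1 on the opposite strand shares 840 exonic bases with SAV1, so reads of these genes cannot be told apart without strand. STK4 (MST1) stood at 110.1, 96.3 and 101 CPM with Azeliragon, against 97.8, 83.5 and 77.5 CPM in DMSO, and did not pass (log2 fold change 0.25; edgeR adjusted p = 0.135), with an overlap made by DMSO a. STK3 (MST2) had 8.58 to 10.3 CPM with Azeliragon and 8.85 to 10.48 CPM in DMSO, with a 95% interval of -0.30 to 0.20 on the log2 scale. LATS1 stood at 13.9, 14.9 and 14.3 CPM with Azeliragon, against 17.5, 13.8 and 11.4 CPM in DMSO, and the DMSO libraries lay on both sides of the others. The LATS co-activators MOB1A and MOB1B had log2 fold changes of 0.07 and -0.12 and did not pass.

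Upstream of the kinases FRMD6, a FERM-domain protein related to Drosophila Expanded, stood at 136, 127 and 133 CPM with Azeliragon, against 118, 97.6 and 80.2 CPM in DMSO. The groups did not overlap, the DMSO libraries were spread widely, and the log2 fold change was 0.42 (SE 0.11; edgeR adjusted p = 0.0449). That call was lost in each of the 5 fits that kept DMSO a and left out another library (adjusted p between 6.75e-07 and 0.181), with library totals in place of TMM, and with a stricter filter. NF2, which encodes merlin, had 21.9, 26.4 and 24.2 CPM with Azeliragon, against 21.9, 20.8 and 20.3 CPM in DMSO. It did not pass (log2 fold change 0.20; edgeR adjusted p = 0.234).

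Among the effectors, YAP1 stood at 137, 123 and 131 CPM with Azeliragon, against 142, 113 and 107 CPM in DMSO. DMSO a was the highest of the 6 libraries, and the log2 fold change of 0.11 did not pass (edgeR adjusted p = 0.564). Without DMSO a it was 0.25 and passed. WWTR1, which encodes TAZ, stood at 47.1, 47.1 and 50.4 CPM with Azeliragon, against 63.6, 51.4 and 51.2 CPM in DMSO. Every Azeliragon library lay below every DMSO library, but the log2 fold change of -0.20 (95% interval -0.40 to -0.003) did not pass (edgeR adjusted p = 0.236), and it was -0.09 without DMSO a. VGLL4, which competes with YAP for TEAD, stood at 26.5, 23.1 and 24.6 CPM with Azeliragon, against 34.0, 29.1 and 27.4 CPM in DMSO. Its groups did not overlap, and the log2 fold change of -0.29 (95% interval -0.50 to -0.08) did not pass (edgeR adjusted p = 0.115). VGLL4 was called lower once the dependence on GC content and transcript length was removed, and WWTR1 was called lower when DMSO a was also left out. YAP1, WWTR1 and VGLL4 each share exonic bases with a gene on the opposite strand (628, 795 and 1596 bases for the longest overlap), so their counts are uncertain.

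Of the TEAD genes outside the target list TEAD4 rose. It stood at 34.8, 34.6 and 35.0 CPM with Azeliragon, against 27.0, 24.9 and 27.0 CPM in DMSO. The groups were clearly apart and DMSO a did not stand out (1.32-fold; log2 fold change 0.40, SE 0.08; edgeR adjusted p = 0.00745), although the call was lost without Azeliragon c or DMSO b (adjusted p between 0.000288 and 0.0557 over the fits on 5 libraries). TEAD3 had 106, 107 and 109.7 CPM with Azeliragon, against 104, 98.6 and 97.5 CPM in DMSO, and TEAD2 had 32.4 to 34.3 CPM with Azeliragon and 32.1 to 34.3 CPM in DMSO. Neither passed, with log2 fold changes of 0.10 and 0.01.

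Paralogs were compared per length of merged exons. YAP1 made up 79.5%, 77.8% and 77.7% of YAP1 plus WWTR1 with Azeliragon a, b and c, against 74.9%, 74.6% and 73.5% in DMSO a, b and c. The groups did not overlap, and the difference was 3.95 percentage points (two-sided exact permutation test, p = 0.1, the smallest that 3 against 3 can give). LATS2 made up 88.5%, 88.1% and 88.9% of LATS1 plus LATS2 with Azeliragon, against 86.7%, 85.4% and 87.5% in DMSO. These groups did not overlap either (difference 1.95 points; two-sided exact permutation test, p = 0.1). DMSO a lay with the other DMSO libraries in both shares. TEAD1 made up 20.7%, 19.7% and 22.7% of the TEAD family with Azeliragon, against 21.3%, 16.7% and 15.7% in DMSO, with DMSO a inside the Azeliragon range (two-sided exact permutation test, p = 0.3). TEAD3 was the leading family member per length, with 45.02% ± 0.64 with Azeliragon and 48.5% ± 1.1 in DMSO (SD, n = 3 each).

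**Figure D3:**
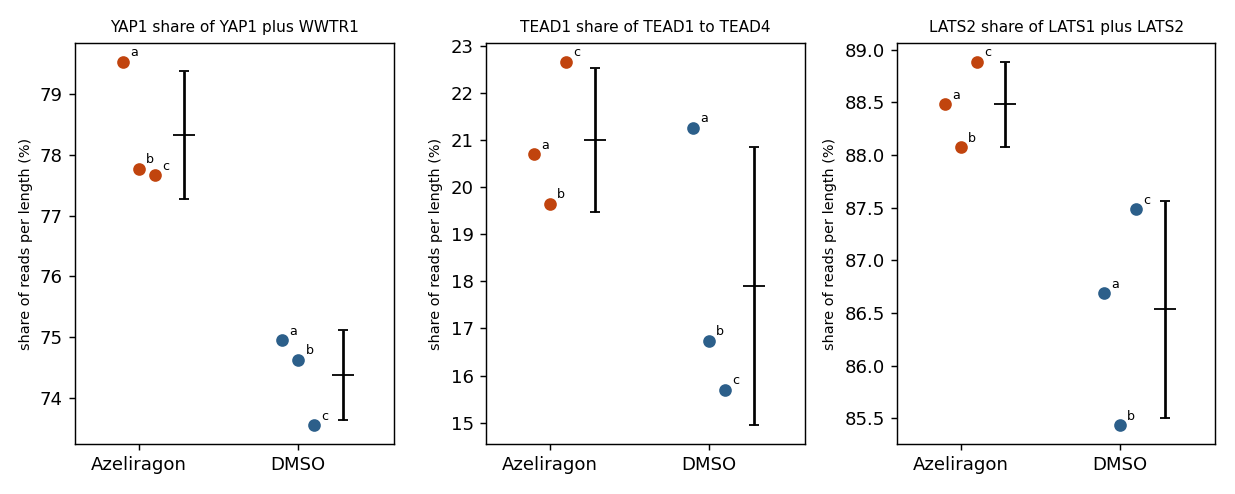
Share of the first-named gene in the reads per merged-exon length of its paralog group, in percent, for each library (letters a, b and c), with mean and SD to the right of the points; the axes do not start at 0. YAP1 and LATS2 shares are higher in all 3 Azeliragon libraries than in all 3 DMSO libraries, and the TEAD1 shares overlap through DMSO a.

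On the level scale per kb of merged exons, the members ran from very abundant to scarce. CYR61 stood at 1163 ± 41 CPM per kb with Azeliragon and 946 ± 19 in DMSO (SD, n = 3 each), which ranked 25th and 33rd of 16001 genes with a length. CTGF and AXL followed, at 361 ± 18 and 325 ± 5.3 CPM per kb with Azeliragon and 316 ± 8.6 and 272 ± 17 in DMSO, and in each condition these neighbours differed by more than 1 SD. ANKRD1 stood above NT5E with Azeliragon (115 ± 4.5 against 104 ± 2.6 CPM per kb) and below it in DMSO (75.6 ± 2.8 against 103 ± 3.0). That change of order depended on the length used. NT5E has 4533 bases of merged exons and a longest transcript of 3918 bases, and ANKRD1 has 1979 on either measure. Per longest transcript ANKRD1 stood below NT5E in both conditions. Most core genes lay lower. YAP1 had 20.7 ± 1.1 CPM per kb with Azeliragon and 19.2 ± 3.0 in DMSO, WWTR1 5.73 ± 0.23 and 6.58 ± 0.84 in the same order, and LATS1, MOB1B and STK3 were under 2 in both conditions. DLC1, FRMD6, LATS2, TEAD2, TEAD4 and PTPN14 lay, in rising order, between 10.2 and 11.8 CPM per kb in DMSO, and neighbours in that order differed by less than the larger SD of the pair.

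**Figure D4:**
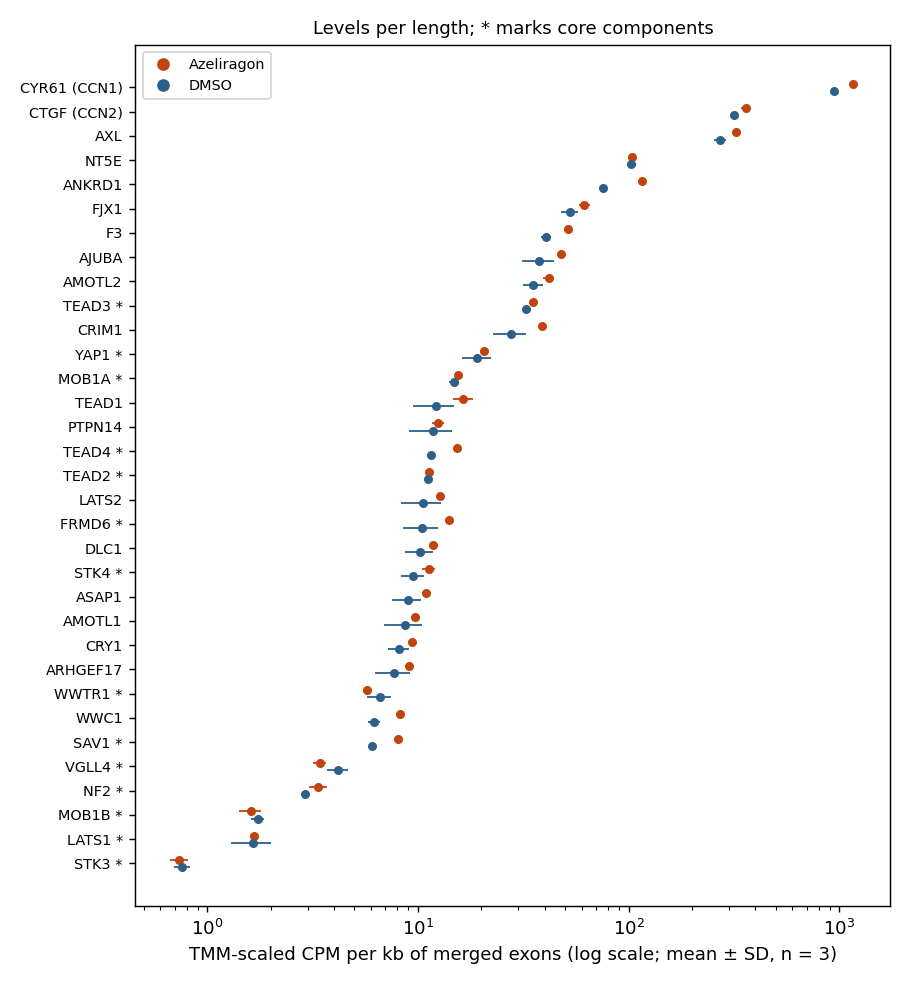
Mean level of each tested member per kb of merged exons (log axis), with Azeliragon (orange-red) and in DMSO (blue); bars are the SD over 3 libraries and asterisks mark core components. CYR61, CTGF and AXL lead at over 270 CPM per kb in both conditions, and the core genes LATS1, MOB1B and STK3 are lowest.

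Fold changes were only weakly related to transcript length over 16001 genes (r = 0.059, and 0.077 without DMSO a, both on log2 scales). With all 6 libraries the members showed no steady rise with length. The 1 member of 1001 to 2000 bases had a log2 fold change of 0.61. The 3 members above 12000 bases had a median of 0.08. The median merged-exon length was 5979 bases for the targets, 10035 for the 7 targets that are also components, 7203 for the tested core components and 4381 for all genes tested with a length. Across all genes the median log2 fold change was -0.02 up to 1000 bases (1352 genes), -0.05 in the class of 1001 to 2000 bases (1630 genes) and 0.08 above 12000 bases (897 genes). Without DMSO a these medians were -0.02, -0.13 and 0.18. The 6 members of 2001 to 3000 bases had a median log2 fold change of 0.26, where all 2128 genes of that class had -0.05. The 10 members of 8001 to 12000 bases had 0.24, where all 2002 genes had 0.05, and without DMSO a these values were 0.38 and 0.11. With the trend on GC content and length removed, 12 targets rose and none fell (5.1% of all genes were called higher and 4.21% lower), with a median of 0.28, and 3 core components rose and 1 fell. The 7 members of at most 3000 bases, ANKRD1, TEAD4, F3, CYR61, FJX1, CTGF and TEAD2, had log2 fold changes of 0.63, 0.48, 0.36, 0.33, 0.32, 0.23 and 0.09 there.

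**Figure D5:**
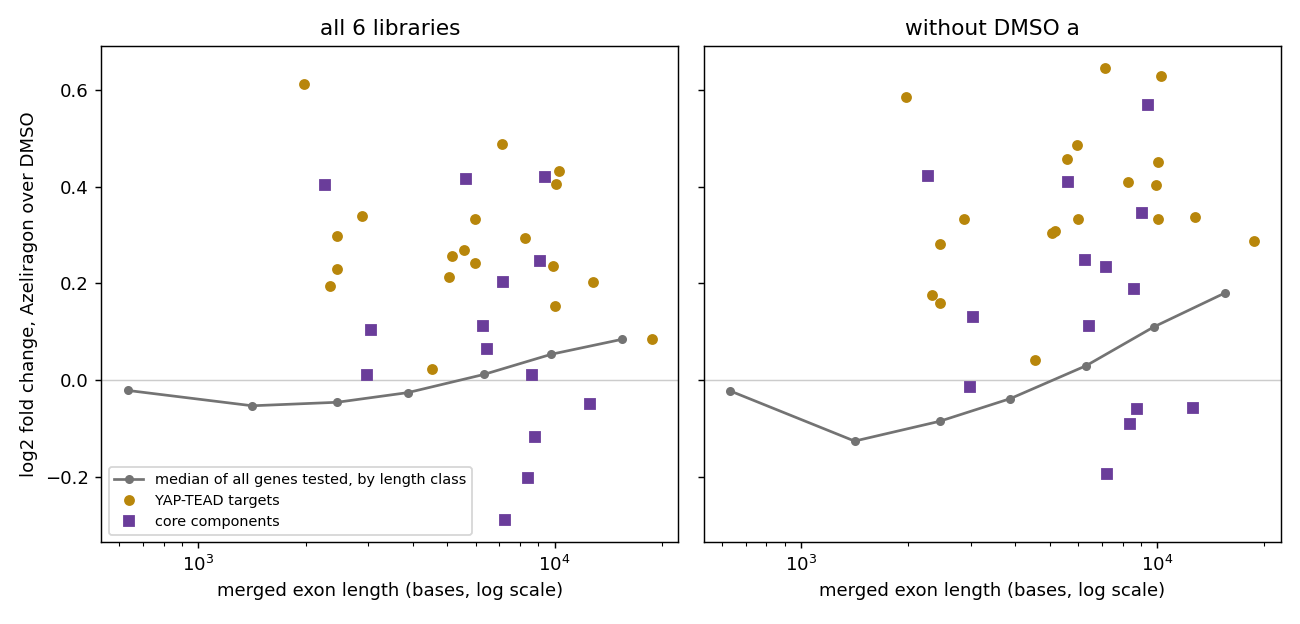
Log2 fold change (Azeliragon over DMSO) against merged-exon length (log axis) with all 6 libraries (left) and without DMSO a (right); gold circles are targets, purple squares core components, and the grey line joins the medians of all genes tested in 7 length classes. The grey line starts at -0.02 in the shortest class of both panels, drops to -0.05 (left) and -0.13 (right) in the next, and from there rises to 0.08 (left) and 0.18 (right); most targets lie above it in both panels.

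Genes of the same pathway outside the members were taken from lists. Of 19 other genes of YAP-TEAD signatures that were tested, 4 rose and 0 fell, with a median log2 fold change of 0.20, where 2.75% of all genes were called higher and 3.53% lower. At an unadjusted p under 0.05 edgeR had 9 higher and 2 lower (9.89% and 10.5% of all genes), and DESeq2 called 6 higher and 0 lower (4.29% and 4.54%). Among these were IGFBP3, an insulin-like growth factor binding protein (log2 fold change 0.31), the ligand TGFB2 (0.45) and the caveolar protein CAVIN2 (0.38). IGFBP3 had 116, 124 and 119 CPM with Azeliragon, against 95.05, 98.44 and 95.53 CPM in DMSO, without overlap (edgeR adjusted p = 0.00906). None of the 4 calls held in every fit on 5 libraries. No gene of this list passed without DMSO b, Azeliragon b or Azeliragon c, when 2.86%, 3.01% and 2.7% of all genes were called. Without Azeliragon a 1 passed (2.68% of all genes), without DMSO c 3 (4.94%) and without DMSO a 11 (23.7%). The abundant THBS1, a matricellular protein, and MYOF did not pass, at -0.20 and 0.23.

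Of 48 other Hippo components tested, 2 fell and 0 rose, with a median log2 fold change of 0.07, where 3.53% of all genes were called lower and 2.75% higher. At an unadjusted p under 0.05 edgeR had 6 lower and 8 higher (10.5% and 9.89% of all genes), and DESeq2 called 2 lower and 3 higher (4.54% and 4.29%). RASSF4, a member of the RASSF family of which some bind MST kinases, stood at 2.33, 2.64 and 3.21 CPM with Azeliragon, against 6.80, 5.98 and 7.42 CPM in DMSO. The groups were far apart, and it fell 2.47-fold (log2 fold change -1.31, SE 0.16; edgeR adjusted p = 0.000425, and between 3.87e-06 and 0.0064 over the fits on 5 libraries), although DEPP1 overlaps it on the opposite strand. STK38, an NDR kinase related to LATS, had a log2 fold change of -0.24 (edgeR adjusted p = 0.0347) and lost its call when Azeliragon a, b or c or DMSO b was left out (adjusted p between 0.00147 and 0.226). The abundant 14-3-3 genes YWHAZ and YWHAE, whose proteins bind phosphorylated YAP, did not pass, at -0.05 and -0.04. In this list 15 genes rose and 3 fell when DMSO a was left out (12.9% and 10.8% of all genes). A single gene passed when DMSO b, Azeliragon a, Azeliragon b or Azeliragon c was left out (2.68% to 3.01% of all genes). Without DMSO c 2 passed (4.94% of all genes).

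Actin and SRF targets, which share upstream cues with YAP, did not move one way. Of 16 tested, ACTN1 rose (log2 fold change 0.31; edgeR adjusted p = 0.00577), and TAGLN and MYL9 fell (-0.32 and -0.39; edgeR adjusted p = 0.0464 and 0.0113), with a median log2 fold change of 0.03, where 2.75% of all genes were called higher and 3.53% lower. MYL9, a myosin light chain, stood at 157, 171 and 174 CPM with Azeliragon, against 196, 222 and 238 CPM in DMSO, with no overlap. None of the 3 calls held in every fit on 5 libraries (adjusted p up to 0.0621, 0.181 and 0.105 for ACTN1, TAGLN and MYL9, from 3.67e-06, 0.0251 and 6.75e-07). The abundant ACTB and FLNA did not pass, at -0.07 and 0.27. Without DMSO a 9 of these genes passed, when 23.7% of all genes did. Without Azeliragon c or DMSO b none did (2.7% and 2.86% of all genes), and without Azeliragon a or b 1 did (2.68% and 3.01%). Without DMSO c 3 passed (4.94% of all genes).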

How the data were processed

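The authors deposited raw counts per gene for 6 libraries, with no normalization. Per the submitters' processing notes, the tools were STAR 2.6.1d, featureCounts 1.5.0-p3 and limma, and the build was GRCh38. How strand, annotation and reads matching several places were handled was not given in the sources used here. Exons of 14 of the 34 members overlap an annotated gene on the opposite strand and those of 5 one on the same strand, and such counts are uncertain. Names were matched to GENCODE 29, which held 58722 of 58735; 2 entries whose names had become numbers held 0 counts and were left out.

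Genes were kept with filterByExpr, scaled by TMM and tested with glmQLFit and glmQLFTest of edgeR 4.0.16 in R 4.3.3, with treatment as the single term, and p-values were adjusted over all 16081 genes. Standard errors come from the F statistic. Shares used counts divided by merged-exon length. The edgeR step was tested on simulated data. DESeq2 1.42.0, limma-voom (limma 3.58.1), other scalings and filters, a 1.5-fold test, the replicate letter as a block, removal of GC and length trends (splines with 5 degrees of freedom) and leaving out each library were run beside it. Figures used matplotlib 3.10.9. The members, lists and alternatives were chosen with earlier results of these data known. All 34 members are described; of each other list, called genes (up to 6) and the 2 most abundant genes that were not called are named, except 1 called gene that is not reported here. A single read was 0.0222 to 0.0241 CPM; such limits cover counting error only. No library was a copy of another (chi-square per degree of freedom at least 4.56 within conditions).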

Additional observations from a re-analysis of the deposited data

How the results depend on the processing

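All 33 tested members kept the side of the threshold and the direction they had with TMM under RLE size factors and limma-voom. With all 6 libraries, 6 of 19 targets, 3 of 14 core components, 4 other signature genes, 2 other Hippo components and 3 actin and SRF targets were called. In all 1009 of 16081 genes tested (6.27%) were called. Without a filter on low counts 14 targets, 4 core components, 7 signature genes, 8 other components and 5 actin and SRF targets were called. Of the 29132 genes then tested 1685 (5.78%) were called. Against a 1.5-fold change the counts were 0 targets, 0 core components, 0 signature genes, 1 other component, 0 actin and SRF targets and 59 genes (0.367%). With the GC and length trend removed 12 targets and 6 other components were called (9.31% of all genes). With DMSO a also left out 17 targets, 8 core components, 10 signature genes, 21 other components and 7 actin and SRF targets were called. Of the 16508 genes then tested 3913 (23.7%) were called. Other components numbered 4 with RLE factors or limma-voom, where 6.31% and 6.39% of all genes were called. They numbered 5 with DESeq2, which called 5 actin and SRF targets and 8.83% of all genes. The cause of these differences was not tested.

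Leaving out 1 library in turn gave 2 to 18 targets, 1 to 5 core components, 0 to 11 signature genes, 1 to 18 other components and 0 to 9 actin and SRF targets. Of all genes 445 to 3916 (2.68% to 23.7%) were called. Each highest count was without DMSO a, each lowest target and core count without Azeliragon c (core also without DMSO b). Of 9 called members 3 (ANKRD1, WWC1 and SAV1) were called in every fit on 5 libraries. Differences between shares ranged from 3.34 to 4.28 points for YAP1, 2.01 to 4.79 for TEAD1 and 1.40 to 2.42 for LATS2. Changes of sign were limited to genes that were not called with all 6 libraries. PTPN14 had -0.021 with the trend removed, -0.0171 with the block added, and -0.0182 to 0.289 with libraries left out. It was called higher at 0.289, without DMSO a. LATS1 had -0.0121 and -0.0044 in the same order, and -0.124 to 0.188 with libraries left out. With libraries left out STK3 ran from -0.13 to 0.0162 and TEAD2 from -0.0143 to 0.0389.

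With the replicate block 8 targets, 3 core components and 908 genes (5.65% of all genes) were called. With the trend removed too 11 targets and 5 other components were called, where 1415 genes (8.8%) were called in all. Same-lettered libraries did not deviate together (correlations 0.027, 0.022 and -0.044), so the letters were not taken to pair them.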
